A study of Homo sapiens with 11 samples.

Results

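The metallothionein (MT) cluster on chromosome 16 was described in MDA-MB-231 cells, an established human triple-negative breast cancer line, in wild-type (WT) cells and in cells depleted of the histone variant macroH2A1.1 (mH2A1.1). The members were 9 genes, MT2A, MT1E, MT1M, MT1A, MT1B, MT1F, MT1G, MT1H and MT1X, of the 23167 genes in the count tables. They were chosen by name and position, for their counts in WT against mH2A1.1 knock-down (KD) cells and for the ChIP-seq peaks over the cluster, so their values in that contrast and at those peaks are given as a description, without a test. Total RNA was sequenced from 2 WT and 2 KD libraries. KD cells were collected 3 days after transfection with an siRNA against mH2A1.1 at 11 nM, and WT cells received the transfection reagent INTERFERin without any siRNA. WT cells were therefore not exposed to a control siRNA, and an effect of siRNA as such cannot be told apart from the depletion. ChIP-seq came from WT cells only, with 1 library for the antibody against mH2A1.1 (Ab αmH2A1.1) and 1 for the antibody against total mH2A1 (Ab37264). The sources used here do not say whether the replicate libraries came from separate cultures, so their spread may be technical.

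Metallothioneins are small cysteine-rich proteins that bind zinc and copper, and also cadmium, through clusters of thiolate bonds. They buffer free metal ions in the cytoplasm and can scavenge oxidants. Their genes are induced when the zinc sensor MTF1 (metal regulatory transcription factor) binds metal response elements (MREs) in their promoters, and several of them also respond to glucocorticoids and to oxidative stress. MT2A is the most abundant isoform in many human tissues, whereas the MT1 genes arose by duplication and are used unevenly between cell types. Macro-histone variants replace the core histone H2A in part of the nucleosomes, and mH2A1.1 and mH2A1.2 are splice isoforms of the gene MACROH2A1.

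The cluster spanned 75613 bp of GRCh38, from the first base of MT2A to the last base of MT1X. In order along the chromosome, MT2A lay at chr16:56608584-56609497, MT1E at chr16:56625475-56627112, MT1M at chr16:56632659-56633981, MT1A at chr16:56638666-56640087, MT1B at chr16:56651886-56653204, MT1F at chr16:56657731-56660698, MT1G at chr16:56666730-56668065, MT1H at chr16:56669814-56671129 and MT1X at chr16:56682470-56684196. MT1G was the 1 member on the minus strand and the other 8 were on the plus strand. The genes are compact, with 3 coding exons in the transcripts used here and summed exon lengths from 393 bp for MT1B to 1852 bp for MT1F.

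The coding sequences are shown first because their likeness bears on which reads could be assigned to a single member. The 4 below are those of the member with most counts, MT2A, of MT1E, and of 2 members at or below 6 counts in every library, MT1X and MT1M. Capitals mark bases that differ from MT2A at the same place. The reference sequence is GRCh38 with the exons of GENCODE release 44.
MT2A: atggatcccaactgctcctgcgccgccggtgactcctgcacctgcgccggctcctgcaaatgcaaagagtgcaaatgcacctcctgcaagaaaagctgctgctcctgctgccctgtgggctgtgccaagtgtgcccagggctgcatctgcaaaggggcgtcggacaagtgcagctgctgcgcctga
MT1E: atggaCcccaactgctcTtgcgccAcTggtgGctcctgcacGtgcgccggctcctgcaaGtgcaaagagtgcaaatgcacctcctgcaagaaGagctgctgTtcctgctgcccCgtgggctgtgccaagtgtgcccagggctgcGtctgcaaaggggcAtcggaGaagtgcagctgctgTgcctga
MT1X: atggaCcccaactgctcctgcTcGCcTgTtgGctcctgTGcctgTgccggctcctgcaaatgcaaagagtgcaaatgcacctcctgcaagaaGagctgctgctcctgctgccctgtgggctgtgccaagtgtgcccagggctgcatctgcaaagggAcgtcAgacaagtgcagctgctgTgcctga
MT1M: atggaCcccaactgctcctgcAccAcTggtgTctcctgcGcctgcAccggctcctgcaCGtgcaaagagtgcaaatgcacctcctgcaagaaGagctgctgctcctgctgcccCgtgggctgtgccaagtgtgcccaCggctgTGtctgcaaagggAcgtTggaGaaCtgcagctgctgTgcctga
MT1E and MT1X each differed from MT2A at 14 of 186 bases, and MT1M differed at 19. Over the 8 members with a coding length of 186 bases, identity ran from 88.7% for the least alike of 28 pairs to 94.6% for MT1A and MT1E. The coding sequence of MT1G was 189 bases long and was not aligned by position.

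The differences were spread along the sequence, and windows of the transcripts were compared for how many fit 1 member only. Of all windows of 75 bases along the spliced transcripts, the share with an exact match nowhere else in the genome or in another gene's transcript was 100% for MT2A, MT1A, MT1B and MT1F, 99.2% for MT1E and 98.8% for MT1M. It was lower for MT1G (93.5%), MT1X (91.8%) and MT1H (89.2%). MT1G and MT1X shared 22 windows with each other, and MT1H shared 35 windows with the MT1HL1 gene on another chromosome. At 50 bases the lowest share was 78.7%, for MT1G, and at 150 bases every window of every member was at 1 place only. The length of the reads is not given in the sources used here, and matches with mismatches were not counted. The counts were limited to reads above a mapping quality limit, so a read that fits several members equally well is missing from all of them.

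**Figure D1:**
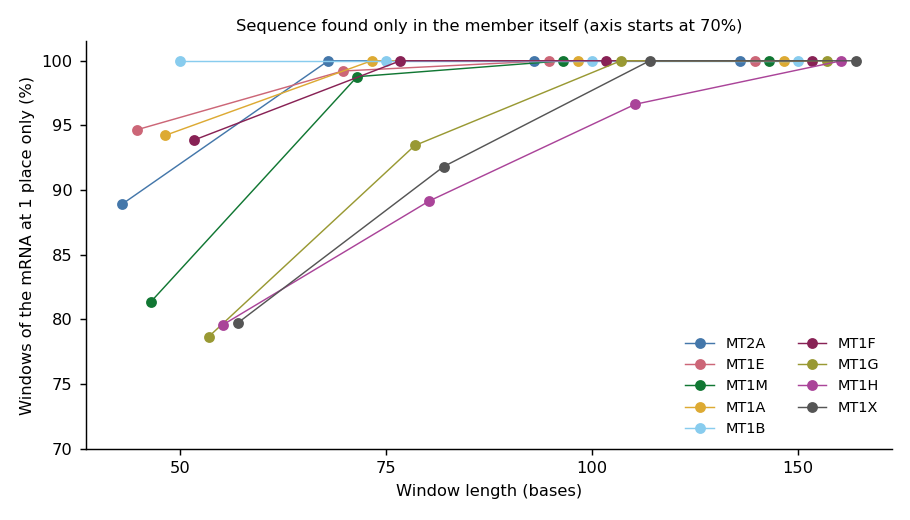
Share of the windows of each member's spliced transcript (y axis, percent, starting at 70) that were found at 1 place only by exact match, against the window length in bases (x axis, not to scale). Each point is 1 member at 1 length. At 75 bases MT1H had the lowest share with 89.2%, and at 150 bases all 9 members were at 100%.

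The upstream sequences are shown for the MREs, the elements through which MTF1 acts. Of the 9 members, 4 were found in the RefSeq promoter table (GRCh38.p14), namely MT2A, MT1X, MT1H and MT1B. For 3 of them the 250 bases before the transcription start site (TSS) are given 5′ to 3′ on the plus strand, with each match to the MRE core TGCACNC or TGCGCNC, on either strand and with overlaps allowed, in capitals. The stretches are chr16:56608334-56608583 for MT2A, chr16:56682220-56682469 for MT1X and chr16:56669564-56669813 for MT1H.
MT2A: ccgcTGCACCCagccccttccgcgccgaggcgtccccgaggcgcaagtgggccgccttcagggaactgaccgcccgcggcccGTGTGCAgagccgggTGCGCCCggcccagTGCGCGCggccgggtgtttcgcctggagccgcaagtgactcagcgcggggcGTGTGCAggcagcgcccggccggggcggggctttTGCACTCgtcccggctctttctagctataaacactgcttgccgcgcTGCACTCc
MT1X: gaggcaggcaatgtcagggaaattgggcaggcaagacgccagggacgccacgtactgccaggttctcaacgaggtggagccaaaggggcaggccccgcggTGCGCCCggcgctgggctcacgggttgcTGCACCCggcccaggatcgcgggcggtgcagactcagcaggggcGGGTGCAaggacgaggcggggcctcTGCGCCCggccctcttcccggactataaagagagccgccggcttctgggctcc
MT1H: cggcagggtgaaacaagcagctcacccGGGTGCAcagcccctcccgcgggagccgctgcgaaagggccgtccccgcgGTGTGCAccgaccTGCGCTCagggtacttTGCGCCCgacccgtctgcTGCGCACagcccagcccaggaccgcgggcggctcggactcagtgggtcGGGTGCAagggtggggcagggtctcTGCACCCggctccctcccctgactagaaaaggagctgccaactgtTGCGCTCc
MT2A held 7 matches, MT1H 8, MT1X 4 and MT1B 3. Among 22444 promoters of that length, 28.1% held at least 1 match and 1.88% held 3 or more. The match nearest to the TSS began 8 bases before it in MT2A and MT1H. The letters TATAAA, which were searched on the given strand only and lay in 6.09% of all promoters, were found once each in MT2A, MT1X and MT1B and not in this window of MT1H. The antioxidant response element TGACNNNGC, present in 11.4% of promoters, was matched once each in MT2A, MT1X and MT1B. A match is a description of these letters and no evidence of binding. MT1H, with the largest number of matches, had no counts in any library, as given below.

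The counts on genes ranged from 2309549 in KD replicate 2 to 9794674 in WT replicate 1, a 4.24-fold span. Genes on chromosomes 21, 22 and X had no or almost no counts in KD replicate 2, so the 1761 genes on these chromosomes, on Y and in the mitochondrial genome were left out of the fit. In CPM (counts scaled to library size with TMM factors), the targeted gene MACROH2A1 was at 385 and 394 in WT and at 274 and 300 in KD (log2 fold change -0.44, SE 0.17, adjusted p = 0.205 in edgeR's quasi-likelihood test). These counts do not separate the 2 isoforms and so do not measure mH2A1.1 itself. Of the markers known from this line, VIM, CD44, EGFR, AXL, ZEB1 and KRT18 were all counted in every library, and of 4 genes expected to be absent or low, the hormone receptor genes ESR1 and PGR had no counts. The epithelial adhesion genes CDH1 and EPCAM were detected, CDH1 with 22, 19, 2 and 5 counts and EPCAM at 19.9, 22.1, 24.2 and 21.3 CPM in WT 1, WT 2, KD 1 and KD 2. DESeq2 called 2 of the 6 expressed markers as higher in KD, the intermediate filament genes VIM (log2 fold change 0.66, adjusted p = 0.0983) and KRT18 (0.85, adjusted p = 0.0341). Over all the genes that it tested, it called 5.59% as higher. Of 6 markers of other cell types, 5 were in the tables, and their counts were at most 97, for the collagen gene COL1A1 in KD replicate 1. COL1A1 had 92, 66, 97 and 70 counts in WT 1, WT 2, KD 1 and KD 2 (edgeR log2 fold change 1.42, SE 0.32, adjusted p = 0.192). In the same order, PECAM1 had 29, 26, 29 and 9 counts (edgeR 0.65, SE 0.32, adjusted p = 0.253). CDH5, LYZ and CD3E had 0 to 3 counts. The part of these genes in the results below was not tested.

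MT2A and MT1E held nearly all counts on the cluster, and the other 7 members together had 0.633% to 1.08% of them in each library. MT2A, the main metal buffer of the family in many tissues, had 2690 and 2768 counts in WT and 1858 and 1708 in KD. Scaled to depth, this was 283 and 364 CPM in WT and 351 and 807 CPM in KD. KD replicate 1 lay between the WT libraries and KD replicate 2 above them, so the groups overlapped. The group means were 323 ± 57.3 CPM in WT and 579 ± 323 CPM in KD (SD, n = 2 each). The fitted log2 fold change was 0.84 (SE 0.38), and without KD replicate 2 it was 0.12 (SE 0.098).

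MT1E, an MT1 isoform expressed in a subset of cell types, had 555 and 687 counts in WT and 712 and 645 in KD, so the raw counts were nearly level although the library totals were not. These were 58.4 and 90.3 CPM in WT and 135 and 305 CPM in KD, and both KD libraries lay above both WT libraries. The means were 74.4 ± 22.6 CPM in WT and 220 ± 120 CPM in KD (SD, n = 2 each). The fitted log2 fold change was 1.55 (SE 0.40), a fold change of 2.93, and it was 0.87 (SE 0.12) without KD replicate 2 and 2.04 (SE 0.12) without KD replicate 1. The same separation of groups, both KD libraries above both WT libraries, was met by 32.5% of the 10963 genes tested, and 32.4% were separated the other way.

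Per kilobase of exon, the level of MT2A in WT was 354 ± 62.7 CPM per kb and that of MT1E was 70.7 ± 21.5 CPM per kb (SD, n = 2). By this measure MT2A ranked 33 and MT1E 401 among the tested genes in WT. The ratio of MT1E to MT2A counts within a library does not depend on library scaling. It was 0.206 and 0.248 in WT and 0.383 and 0.378 in KD, and the KD mean was 1.67 times the WT mean. The 2 KD libraries were close in this ratio although they differed 2.27-fold in MT1E and 2.30-fold in MT2A CPM. The share of MT1E in the counts on the cluster accordingly went from 16.9% and 19.7% in WT to 27.4% and 27.2% in KD.

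**Figure D2:**
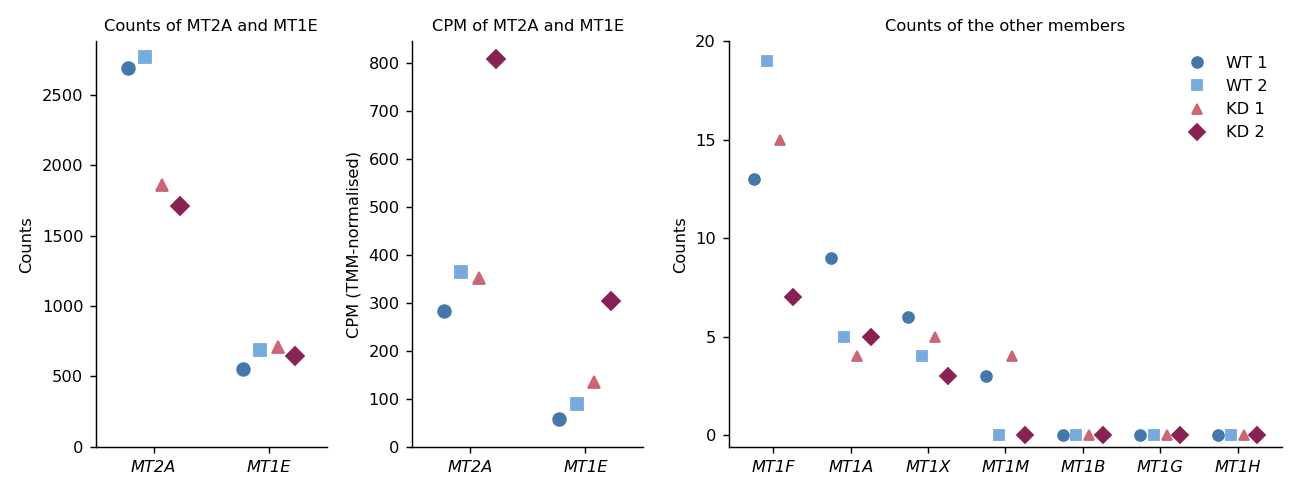
Counts (left) and TMM-scaled CPM (middle) of MT2A and MT1E, and counts of the other 7 members (right), with 1 point per library, 2 WT (circle, square) and 2 KD (triangle, diamond). MT1E lies between 555 and 712 counts in all 4 libraries but reaches 305 CPM in KD replicate 2, and no other member passes 19 counts.

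The other 7 members were at or near 0. MT1F had 13 and 19 counts in WT and 15 and 7 in KD. It stood at 1.37 and 2.5 CPM in WT and 2.83 and 3.31 CPM in KD, with a fitted log2 fold change of 0.66 (SE 0.45). The lower KD value was above the higher WT value, by less than the distance between the WT libraries. MT1A had 9, 5, 4 and 5 counts in WT 1, WT 2, KD 1 and KD 2, and MT1X had 6, 4, 5 and 3. MT1M had 3, 0, 4 and 0. These 3 members did not pass the filter on low counts, and no fold change is given for them at such counts. In GENCODE release 44, unnamed genes on the same strand overlap MT1X and MT1B, and whether reads were lost to such overlaps was not tested. MT1B, MT1G and MT1H had no counts in any library, which allows up to 3 counts, or 0.316 CPM in WT replicate 1 and 1.42 CPM in KD replicate 2 (counting error only). In order of level per kb of summed exon in WT, MT2A was followed by MT1E, MT1A (2.03 ± 0.52 CPM per kb), MT1F (1.04 ± 0.43), MT1X (0.34 ± 0.043) and MT1M (0.31 ± 0.44), with n = 2 for each SD. By this measure in WT, the values of each of MT2A, MT1E, MT1A and MT1F lay wholly above those of the next member, whereas those of MT1X and MT1M overlapped. The place of MT1F depends on the length used. Its summed exons were 1852 bp and its 3-exon transcript 425 bases, whereas both lengths were 396 for MT1A. Without scaling to length, MT1F in WT (1.37 and 2.5 CPM) lay above MT1A (0.947 and 0.658 CPM).

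Of the 9 members, 3 passed the filter on low counts (MT2A, MT1E and MT1F), and these entered the test across 10963 genes. With the study's limits, adjusted p below 0.1 and a change above 1.5-fold, edgeR called 0 members and 0% of the tested genes, although 1290 genes were higher and 1250 lower in KD at an unadjusted p under 0.05. DESeq2, the tool used in the study, called MT1E as higher (log2 fold change 1.54, SE 0.35) and did not call MT2A (0.82, SE 0.33). It called 5.59% of its 7641 tested genes as higher and 5.86% as lower. From the same RNA-seq data, the paper names MT1E among its mH2A1.1-repressed genes, those higher in KD. It also reports quantitative PCR of reverse-transcribed RNA, with different siRNAs against mH2A1.1, for a subset of its regulated genes. The paper's primer list includes MT1E, and the PCR values were not available here. Nothing is read from the count of 1 member, since the members were chosen with this contrast known. In bulk RNA, a larger number of cells with high expression and more RNA in each cell cannot be told apart.

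The fitted change varied with gene length, GC content and the density of counts over all genes tested. MT2A and MT1E are short, with 914 and 1052 bp of exon (98.7% and 98.3% of the tested genes were longer). Their GC content was 54.2% and 58.7%, and 72.0% and 84.8% of the tested genes were lower. Over all genes tested, the median log2 fold change rose from -0.48 in genes of up to 40% GC to 0.25 between 50% and 55%. It was 0.39 between 55% and 60%, 0.50 above 60%, and 0.47 in the 230 genes with under 1200 bp of exon. It was also higher in genes with denser counts on their exons. It was -0.01 in the 8189 genes at up to 0.1 counts per exon base, 0.18 in the 595 genes between 0.3 and 1, and 0.67 in the 48 genes above 2. MT2A, at 2.47 counts per exon base, and MT1E, at 0.618, were denser than 99.7% and 97.8% of these genes. The authors removed duplicate reads before counting, without molecular identifiers. With offsets for length and GC content, the log2 fold change of MT2A was 0.32 (SE 0.21) and that of MT1E 0.94 (SE 0.21), the latter then called by edgeR. With offsets for counts per exon base, an alternative chosen after seeing the data, they were 0.32 (SE 0.26) and 1.31 (SE 0.35), and neither was called.

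**Figure D3:**
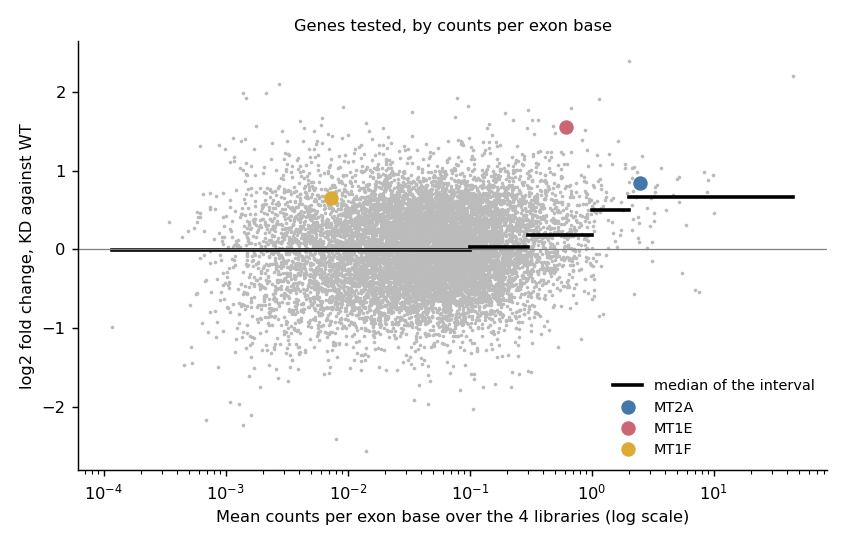
Fitted log2 fold change in KD against WT (y axis) by mean counts per exon base over the 4 libraries (x axis, log scale) for the genes tested. Grey points are genes, black lines the median within 5 intervals, and coloured points MT2A, MT1E and MT1F. MT2A lies close to the median of the densest interval (0.67), and MT1E lies above that of its own (0.18).

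**Figure D4:**
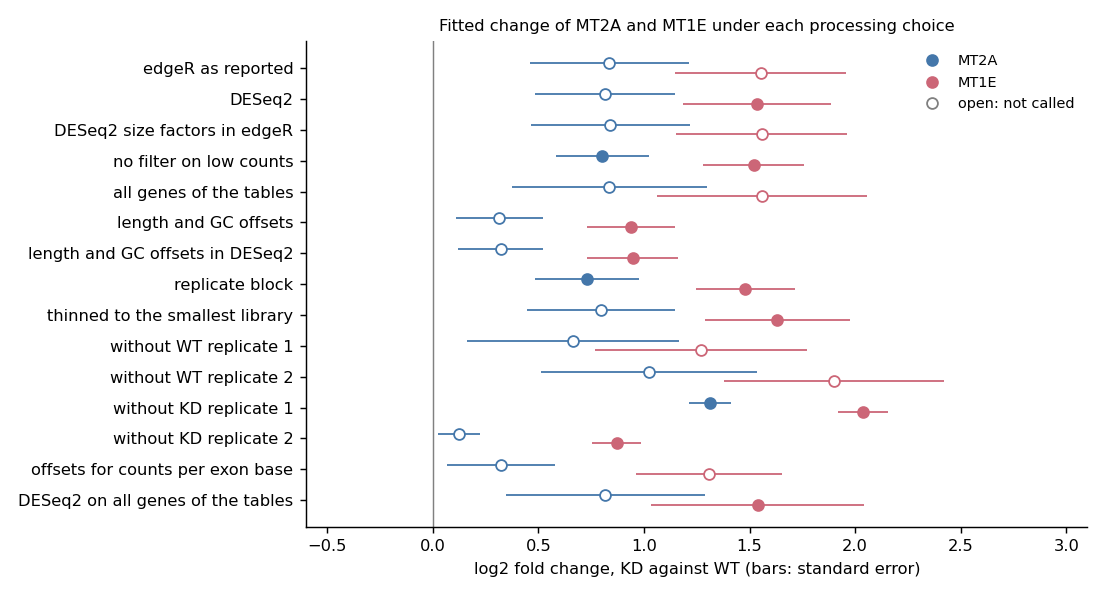
Log2 fold change of MT2A (blue) and MT1E (red) in KD against WT with its standard error (bars) under each way of processing (rows). Filled points passed both limits in that fit, and open points did not. MT1E runs from 0.87 to 2.04 and MT2A from 0.12 to 1.31, and every value is above 0.

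The 3 genes other than members with the profile most like that of MT2A across the 4 libraries, among 8754 genes, were the histone genes H2BC13, H2BC18 and H2AC13 (Euclidean distance of centred log2 CPM 0.017, 0.054 and 0.084). H2BC13 had 29.7 and 37.7 CPM in WT and 36.5 and 85.1 CPM in KD. Histone genes of this kind have near-identical copies, so their counts are uncertain. For MT1E they were RABAC1 (0.26), CLIC3 (0.30) and BLVRB (0.36). RABAC1 had 17.6 and 23.9 CPM in WT and 33.4 and 73.2 CPM in KD. The distance between MT1E and MT2A was 0.77, so each had closer profiles outside the cluster than in the other. With 4 libraries, such distances describe these libraries alone.

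Genes of metal handling were examined beside the members. MTF1, the zinc sensor that drives MT transcription, was at 44.2 and 44.8 CPM in WT and 60.6 and 66.6 CPM in KD (log2 fold change 0.51, SE 0.18, adjusted p = 0.194 in edgeR). SLC30A1, the zinc exporter of the plasma membrane and itself an MTF1 target, was at 72.2 and 77.2 CPM in WT and 67.3 and 45.8 CPM in KD (-0.38, SE 0.23, adjusted p = 0.315). None of these list genes passed the edgeR threshold. At an unadjusted p under 0.05, edgeR had 0 higher and 1 lower of the 6 zinc exporters tested, 2 higher and 1 lower of the 10 zinc importers, and 1 higher and 0 lower of the 7 genes of copper handling. Both KD libraries lay above both WT libraries in 0 of these exporters, 5 of the importers and 6 of the copper genes. They lay below them in 4, 4 and 0, beside 32.5% above and 32.4% below over all genes tested.

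Of the 6 zinc exporters that it tested, DESeq2 called 0 as higher and 1 as lower, SLC30A7, which moves zinc into the early secretory pathway (log2 fold change -0.75, adjusted p = 0.0983). Of the 4 genes of copper handling that it tested, it called 1 as higher, the copper chaperone ATOX1 (1.11, adjusted p = 0.0706), and none as lower. ATOX1 was at 44.7 and 46.4 CPM in WT and 48.4 and 153 CPM in KD, so the difference lay in KD replicate 2. No zinc importer was called, of 10 tested in edgeR and 9 in DESeq2. Over all the genes that it tested, DESeq2 called 5.59% as higher and 5.86% as lower. The median log2 fold change was -0.36 over the 6 zinc exporters, 0.18 over the 10 importers and 0.54 over the 7 copper genes, beside 0.01 over all genes tested. Exon GC content was 36.3% to 40.7% in these exporters, 39.4% to 62.1% in the importers and 44.3% to 56.4% in the copper genes. Over all genes tested, the median was -0.48 at up to 40% GC, -0.22 between 40% and 45% and 0.04 between 45% and 50%. The part of GC content in the list medians was not tested.

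Genes of the other 2 inputs to MT promoters, oxidative stress and glucocorticoids, were examined in the same way. Of 7 targets of the stress factor NRF2 with an adjusted p in DESeq2, it called 1 as higher, the ferritin heavy chain FTH1 that stores iron (log2 fold change 1.01, adjusted p = 0.00883), and 1 as lower, the thioredoxin reductase TXNRD1 (-0.73, adjusted p = 0.0338). FTH1 was at 922 and 996 CPM in WT and 1497 and 2429 CPM in KD, and TXNRD1 at 684 and 705 CPM in WT and 444 and 401 CPM in KD. In both genes the groups did not overlap, but 32.5% of all genes tested had KD wholly above WT and 32.4% wholly below. FTH1 had 2.57 to 4.37 counts per exon base, and the 48 tested genes above 2 had a median log2 fold change of 0.67. The part of count density in the change of FTH1 was not tested. Over all the genes that it tested, DESeq2 called 5.59% as higher and 5.86% as lower. EdgeR called neither (adjusted p = 0.194 for both), with 3 of its 8 tested targets higher and 1 lower at an unadjusted p under 0.05. HMOX1, on a chromosome without counts in KD replicate 2, was not tested. None of the glucocorticoid targets was called, of 5 tested in edgeR and 4 in DESeq2. In edgeR 0 were higher and 2 lower at an unadjusted p under 0.05. Both KD libraries lay below both WT libraries in 4 of the 5, beside 32.4% of all genes tested. The median log2 fold change of the 5 was -0.52, beside 0.01 over all genes tested.

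Around the cluster, MT3 and MT4, the metallothionein genes just before MT2A that are known from brain and stratified epithelia, had no counts, nor had MT1HL1. Within 500 kb on either side, 10 of 18 genes passed the filter and none was called by either tool, with 2 higher and 1 lower at an unadjusted p under 0.05 in edgeR. BBS2, the nearest counted gene before the cluster and a subunit of the BBSome of cilia, was at 24.0 and 22.1 CPM in WT and 13.4 and 21.3 CPM in KD (log2 fold change -0.47, SE 0.27, adjusted p = 0.298). NUP93, the nearest counted gene after it and a scaffold protein of the nuclear pore, was at 68.6 and 68.6 CPM in WT and 73.3 and 75.1 CPM in KD (0.11, SE 0.17, adjusted p = 0.692). The median over the 10 neighbours was 0.14.

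Peaks of both antibodies lay over the cluster in WT cells, on borders that are multiples of 3000 bp in the deposited lists. With 1 library for each antibody there is no replicate error, and heights are not given. Peaks of mH2A1.1 covered 64.3% of the cluster, against 9.95% of chromosome 16, 21.2% of the 50 kb before the cluster and 25.6% of the 50 kb after it. Peaks of total mH2A1 covered 34.6% of the cluster, against 8.26% of the chromosome. The 2 lists shared 18.8% of the cluster.

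An mH2A1.1 peak of 24 kb at chr16:56604001-56628000 held MT2A and MT1E whole, the 2 members with nearly all counts. A second of 36 kb at chr16:56658001-56694000 held MT1G, MT1H and MT1X whole and 90.9% of MT1F, whose TSS lay 270 bp before its border. Another of 3 kb at chr16:56640001-56643000 touched only the last 6.12% of MT1A. MT1M and MT1B lay outside the mH2A1.1 peaks, 4659 and 6115 bp from the nearest. Thus mH2A1.1 peaks held members with the highest counts as well as MT1G and MT1H, which had none.

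The called peaks of total mH2A1 missed the TSSs of most of the members. They held the TSS of MT1A (chr16:56634001-56646000), of MT1F (chr16:56655001-56658000) and of MT1X (chr16:56676001-56691000), and a peak at chr16:56616001-56619000 lay between MT2A and MT1E, 7417 bp and 6475 bp from their TSSs. MT1X was the 1 member whose TSS was in a peak of both lists. Total mH2A1 includes mH2A1.1, so a missing total mH2A1 peak does not show that total mH2A1 was absent. The paper reports that Ab37264 had less affinity for tagged mH2A1.1 than Ab αmH2A1.1. It also reports that both datasets were much alike, and that peak-calling settings were adjusted for each. Within 500 bp of the TSS, 6 of 9 members had an mH2A1.1 peak, beside 37.8% of the 23061 genes with a position, and 3 of 9 had a total mH2A1 peak, beside 21.2%. When only mH2A1.1 peaks that touch a total mH2A1 peak were kept, it was 6 of 9 beside 23.8%. The 9 TSSs lie within 73.9 kb and the 6 share 2 mH2A1.1 peaks, so they are not independent of each other. The peaks were part of how the members were chosen, and nothing is read from these counts.

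**Figure D5:**
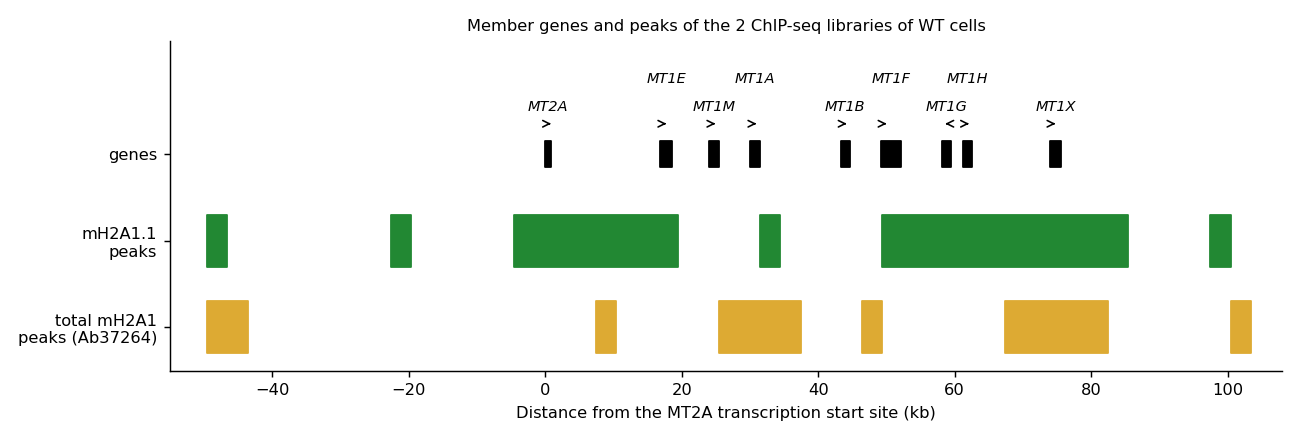
The 9 member genes (black, with arrows for the direction of transcription from the TSS) above the mH2A1.1 peaks (green) and the total mH2A1 peaks (yellow) of WT cells, by distance from the MT2A TSS in kb (x axis). The 24 kb mH2A1.1 peak holds MT2A and MT1E and the 36 kb peak holds MT1G, MT1H and MT1X, whereas the total mH2A1 peaks lie over the TSSs of MT1A, MT1F and MT1X.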

How the data were processed

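MDA-MB-231 RNA-seq (2 WT, 2 KD libraries) and the ChIP-seq peak lists of WT cells (1 library per antibody) were analysed. The authors aligned RNA reads to GRCh38 with STAR 2.5.1, removed reads of low mapping quality and duplicates, and counted reads per gene with htseq-count. The deposited values are these raw counts, and the annotation is not given in the sources used here. Peak positions, other deposited values, came from normR on single libraries. Their score column is 0 throughout and was not used. The input and the 4 PCHiC samples were not used here.

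The test across genes was that of edgeR 4.0.16 under R 4.3.3 (TMM, filter on low counts, quasi-likelihood test, Benjamini-Hochberg over all genes tested), without the genes of chromosomes 21, 22, X, Y and the mitochondrial genome, and with DESeq2 1.42.0 as an alternative. The thresholds of the study, adjusted p below 0.1 with a change above 1.5-fold, were kept. Both tools were run on simulated counts with known changes. Those counts had no trend with length, GC content or count density and no aberrant library, so they do not speak to such features here. Of the 23167 identifiers, 23061 were matched to GENCODE release 44 for symbols, exons and TSSs. The offsets removed smooth trends of log2 CPM (lowess span 0.3). CPM used the counts of the genes kept and TMM factors.

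The members and gene lists were chosen with earlier results of these data known. The text names all members, MACROH2A1, MTF1, SLC30A1, list genes called by either tool (at most 6 per list), called neighbours, the nearest counted neighbours, and the 3 genes most like MT2A and MT1E. Any other list gene was picked with its values known. Other tools, filters, normalizations, depths, windows and peak sets were tried, and each library was left out once.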

Additional observations from a re-analysis of the deposited data

How the results depend on the processing

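The direction was the same under all 14 alternatives for MT1E and MT2A, under 13 for MT1F, which had no value after thinning, and under 12 for MACROH2A1, which was not followed in the 2 settings added after seeing the data, whereas the number of calls depended on the fit. The edgeR count of 0 genes became 875 with DESeq2, 2139 without a filter on low counts, 588 with offsets for length and GC content and 446 with the same offsets in DESeq2, 80 after thinning to the smallest library, and 950 with DESeq2 on all genes (chosen after seeing the data). Leaving out 1 replicate gave from 2 to 4744 genes, the highest without KD replicate 1 and 909 without KD replicate 2. It stayed 0 with DESeq2 size factors, with all genes and with offsets for counts per exon base. Members called went from 0 to 1 (MT1E) with DESeq2, on all genes or not, with length and GC offsets in either tool and after thinning, to 2 (MT1E and MT2A) without the filter, and to between 0 and 2 with 1 replicate left out. Genes called on the metal, stress, glucocorticoid and neighbour lists, cell markers not included, went from 0 to 4 with DESeq2, 14 without the filter, 7 with length and GC offsets and 6 with these in DESeq2, and to between 0 and 26 with 1 replicate left out. With 1 replicate left out, the lone library of a group is assumed to vary like the other group. The log2 fold change then ranged from 0.12 to 1.31 for MT2A, from 0.87 to 2.04 for MT1E and from 0.26 to 1.12 for MT1F, lowest without KD replicate 2 for MT2A and MT1E and without WT replicate 1 for MT1F. The cause of these shifts was not tested.

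Replicate numbers are shared between WT and KD, but no label says that they mark a batch, and deviations of same-numbered libraries correlated at 0.25. With the replicate number as a block, edgeR called 2208 genes, 2 members (MT1E and MT2A) and 16 list genes, at a log2 fold change of 1.48 for MT1E and 0.73 for MT2A.

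The share of member windows found at 1 place only was 97.1% at 75 bases, 88.5% at 50, 99.7% at 100 and 100% at 150 bases. The number of members with an mH2A1.1 peak at the TSS was 5 or 6 of 9 in every variant. For the 6 members that did not pass the filter, at most 9 counts per library were seen and no fold change is given.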
